A study of Mus musculus with 13 samples.

Results

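Box H/ACA small nucleolar RNAs (gene symbols that begin with Snora) and small Cajal body RNAs (Scarna) were followed in sorted mouse microglia after repeated social defeat. Every row of the deposited expression table whose symbol is Snora or Scarna with a number was taken, which gave 41 of 14518 gene entries, 32 Snora and 9 Scarna. The RSD group (n = 7) held microglia, the resident macrophages of the brain, from adult C57BL/6 mice aged 2 months after 6 cycles of repeated social defeat, in which an aggressor is placed with the mice. The CON group (n = 6) held microglia of control mice. In both groups CD11b+/CD45int cells were sorted, and their RNA was collected 24 days later than the last cycle. The labels give no genotype other than the strain, and do not say whether every library stands for 1 animal, so the p-values speak of the spread between libraries. The comparison addresses what remained different in microglia at that point.

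H/ACA RNAs form a pair of hairpins followed by an H box and an ACA box, and pair with a target RNA to place a pseudouridine in it. They act in a particle with the pseudouridine synthase dyskerin (Dkc1) and the proteins Nop10, Nhp2 and Gar1, and their targets are mostly ribosomal RNAs. Small Cajal body RNAs carry the same design, the C/D design that guides methylation of ribose, or both, and direct the modification of spliceosomal small nuclear RNAs. In mammals most of these RNAs are cut out of the introns of other genes, the host genes.

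The sequences are given first for Scarna13, the most abundant entry, and for Snora23 and Snora78, abundant entries whose level differed widely between libraries. They come from the GENCODE M21 transcripts (GRCm38, the assembly also called mm10), 5′ to 3′ with U written as T. Capitals mark the ACA box, searched as ACA with 2 to 4 bases after it at the 3′ end. Scarna13 is 275 bases long and lies at chr12:105031075-105031349 on the minus strand, in an intron of Snhg10. Snora23 (184 bases) lies at chr7:110046364-110046547, plus strand, in an intron of Ipo7, and Snora78 (128 bases) at chr17:24719676-24719803, minus strand, in an intron of Snhg9.
Scarna13: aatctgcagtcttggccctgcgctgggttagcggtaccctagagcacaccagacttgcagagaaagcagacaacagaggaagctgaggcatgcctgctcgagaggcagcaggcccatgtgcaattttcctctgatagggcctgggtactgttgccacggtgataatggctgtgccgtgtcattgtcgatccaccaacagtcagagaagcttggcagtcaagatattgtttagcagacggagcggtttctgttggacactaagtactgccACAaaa
Snora23: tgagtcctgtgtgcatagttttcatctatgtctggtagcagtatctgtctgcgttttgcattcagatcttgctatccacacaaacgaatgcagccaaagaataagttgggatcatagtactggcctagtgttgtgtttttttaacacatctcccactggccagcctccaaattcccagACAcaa
Snora78: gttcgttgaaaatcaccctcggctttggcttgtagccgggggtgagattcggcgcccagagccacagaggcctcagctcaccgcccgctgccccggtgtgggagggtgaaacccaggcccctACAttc

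The next 3 are the entries whose level followed or opposed that of the host gene over the libraries. Snora28 (127 bases) lies at chr12:111540941-111541067, plus strand, within Eif5. Snora75 (133 bases) lies at chr1:86351169-86351301, minus strand, within Ncl. Both overlap an exon of an annotated transcript of the host. Snora31 (130 bases) lies at chr14:75847905-75848034, plus strand, in an intron of Tpt1.
Snora28: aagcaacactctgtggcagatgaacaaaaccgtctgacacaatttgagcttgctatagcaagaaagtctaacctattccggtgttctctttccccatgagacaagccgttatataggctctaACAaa
Snora75: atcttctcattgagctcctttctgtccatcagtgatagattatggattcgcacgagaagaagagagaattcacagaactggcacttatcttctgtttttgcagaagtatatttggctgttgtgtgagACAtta
Snora31: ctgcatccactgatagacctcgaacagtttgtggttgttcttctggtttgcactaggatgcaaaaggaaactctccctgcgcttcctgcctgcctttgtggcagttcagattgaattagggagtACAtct

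The last 3 contain a microRNA, and capitals mark the mature microRNA sequences of RefSeq (GRCm38.p6). In GENCODE the microRNA genes Mir3069 and Mir664 also overlap Scarna13 and Snora36b in part. For these the strand was not compared and no bases are marked. Scarna3a (140 bases; chr1:159340283-159340422, plus strand, in an intron of Cop1) holds both arms of miR-1843b at its bases 80 to 100 and 118 to 137. Scarna3b (139 bases; chr12:80391613-80391751, minus strand, in an intron of Dcaf5) holds both arms of miR-1843a at bases 78 to 98 and 116 to 137. The 3′ arm reaches into the ACA box in both, and the pair are identical at 120 of 140 aligned positions (85.7%). Snora34 (138 bases; chr15:98519716-98519853, minus strand, in an intron of Kansl2) begins with miR-1291, at bases 1 to 26.
Scarna3a: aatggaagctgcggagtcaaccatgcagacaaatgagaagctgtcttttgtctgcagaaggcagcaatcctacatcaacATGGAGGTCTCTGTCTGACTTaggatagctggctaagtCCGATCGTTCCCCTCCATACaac
Scarna3b: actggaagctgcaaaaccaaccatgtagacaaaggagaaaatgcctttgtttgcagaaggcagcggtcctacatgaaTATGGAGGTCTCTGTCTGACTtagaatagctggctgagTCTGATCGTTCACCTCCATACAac
Snora34: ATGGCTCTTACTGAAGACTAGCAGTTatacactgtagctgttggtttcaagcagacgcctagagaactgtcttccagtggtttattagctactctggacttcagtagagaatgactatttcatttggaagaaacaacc

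The boxes followed the names. An ACA box by this search was found in 30 of 32 Snora entries and 4 of 9 Scarna entries, against 2 of 99 Snord transcripts and 6.81% of all 141767 transcripts. The exceptions among the Snora entries were Snora44 and Snora81. A C box (TGATGA, in the first 30 bases) with a D box (CTGA, in the last 15 bases) was found in 4 Scarna entries, Scarna6, Scarna9, Scarna10 and Scarna17, in 0 Snora entries and in 0.283% of all transcripts. Scarna2 had neither by these searches. All searches were made on the transcript's own strand, and a match is a description of these letters only. The entries were 70 to 414 bases long with a median of 134, and lay on 19 chromosomes.

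A gene spanning the small RNA was annotated for 40 of the 41 entries, on the same strand in GENCODE for 36 and in RefSeq for 4, whose listing used here gives no strand. Scarna2 had none. Of the entries, 18 overlapped an exon of some annotated host transcript and 19 lay in an intron of every one. Among the latter, the position of Snora74a refers to the GENCODE gene Gm28285, while its host in the pairs below was Snhg4 of RefSeq. Ribosomal protein genes held 11 of the entries. Snhg12, a noncoding host gene, held Snora16a, Snora44 and Snora61, and Snhg7 held Snora17 and Snora43. For 16 of the 41 entries GENCODE lists a further small RNA gene that is at least 90% identical over at least 80% of the length, none of them under a symbol of its own in the table. Among the entries described here these were Snora2b, Snora3, Snora41, Snora70, Snora75, Snora81 and Scarna17, and their counts are uncertain to that extent.

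Depth was 9.76 to 12.3 M recovered reads per library. Microglia markers were abundant in every library: P2ry12, Tmem119, Cx3cr1, Sall1 and Csf1r summed to 168613 to 200006 normalized reads in RSD and 119092 to 202144 in CON, where a normalized read is a read divided by the library's size factor. Markers of border-associated macrophages, 5 of 6 in the table, summed to 276 to 422 in RSD and 173 to 14596 in CON, the highest in CON 18. Neutrophil markers (5 of 5) summed to 21.1 to 1185 in RSD and 11.6 to 730 in CON, and S100a8 was at 0 in at least 1 library of each group. Monocyte markers (3 of 4) summed to 345 to 416 in RSD and 359 to 444 in CON. CON 18 was the lowest library for P2ry12, at 18926 against 40222 to 56264 in RSD, and for Sall1, at 4226 against 13228 to 14995 in RSD. It was also the lowest for Cx3cr1, at 33260. The remaining microglia markers were lowest in RSD 8, Tmem119 at 4880 and Csf1r at 56773, while RSD 8 was the highest library for P2ry12. Of the other markers, those of lymphocytes (2 of 5 in the table) summed to 4.45 to 15.7 in RSD and 4.83 to 18.0 in CON, and those of neurons (4 of 5) to 26.7 to 63.3 in RSD and 22.2 to 87.5 in CON. Astrocyte markers (3 of 5) summed to 1263 to 1621 in RSD and 412 to 1618 in CON. Oligodendrocyte markers (4 of 5) summed to 470.3 to 631 in RSD and 598 to 715 in CON, with the myelin gene Mbp at a log2 difference of -0.23 ± 0.08 (SE; limma unadjusted p = 0.0143, adjusted p = 0.821). Endothelial markers (3 of 5) summed to 336 to 467 in RSD and 94.7 to 496 in CON. The part of these cell types in the results below was not tested. In bulk libraries fewer cells of a type and less RNA per cell cannot be told apart.

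The small RNAs took a small and very uneven share of the reads. The 41 entries together took 0.0134% (RSD 7), 0.0183% (RSD 8), 0.0505% (RSD 2), 0.0519% (RSD 10), 0.0566% (RSD 11), 0.0630% (RSD 13) and 0.0636% (RSD 12) of reads in RSD. In CON they took 0.0192% (CON 5), 0.0332% (CON 4), 0.0368% (CON 17), 0.0445% (CON 1), 0.0515% (CON 19) and 0.0552% (CON 18). RSD 7, RSD 8 and CON 5 were the lowest libraries, 1 or 2 of them in each group, and the groups overlapped. The mean was 0.0453% ± 0.0208 in RSD (SD, n = 7) and 0.0401% ± 0.0132 in CON (SD, n = 6), a difference smaller than the spread within either group. Without RSD 7, RSD 8 and CON 5 the means were 0.0571% ± 0.00610 in RSD (SD, n = 5) and 0.0442% ± 0.00935 in CON (SD, n = 5), and the ranges still overlapped. For RSD 7 the 95% Wilson interval of the share was 0.0127% to 0.0141%, which covers counting error only and is far narrower than the differences between libraries.

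The same 3 libraries were lowest in C/D box small nucleolar RNAs, the methylation guides named Snord. These took 0.0547% of reads in RSD 8, 0.0637% in RSD 7 and 0.233% to 0.335% in the other RSD libraries. In CON they took 0.0480% in CON 5 and 0.104% to 0.276% in the others. Rmrp, the RNA of RNase MRP, took 0.0128% in RSD 8, 0.0175% in RSD 7 and 0.197% to 0.286% in the other RSD libraries, against 0.0625% in CON 5 and 0.111% to 0.243% in the other CON libraries. Rpph1, the RNA of RNase P, was lowest in the same libraries, at 0.0104% in RSD 8, 0.0180% in RSD 7 and 0.0658% in CON 5. The share of the H/ACA and Cajal body RNAs thus moved with that of other structured RNAs, and whether this came from the cells or from the preparation was not tested.

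**Figure D1:**
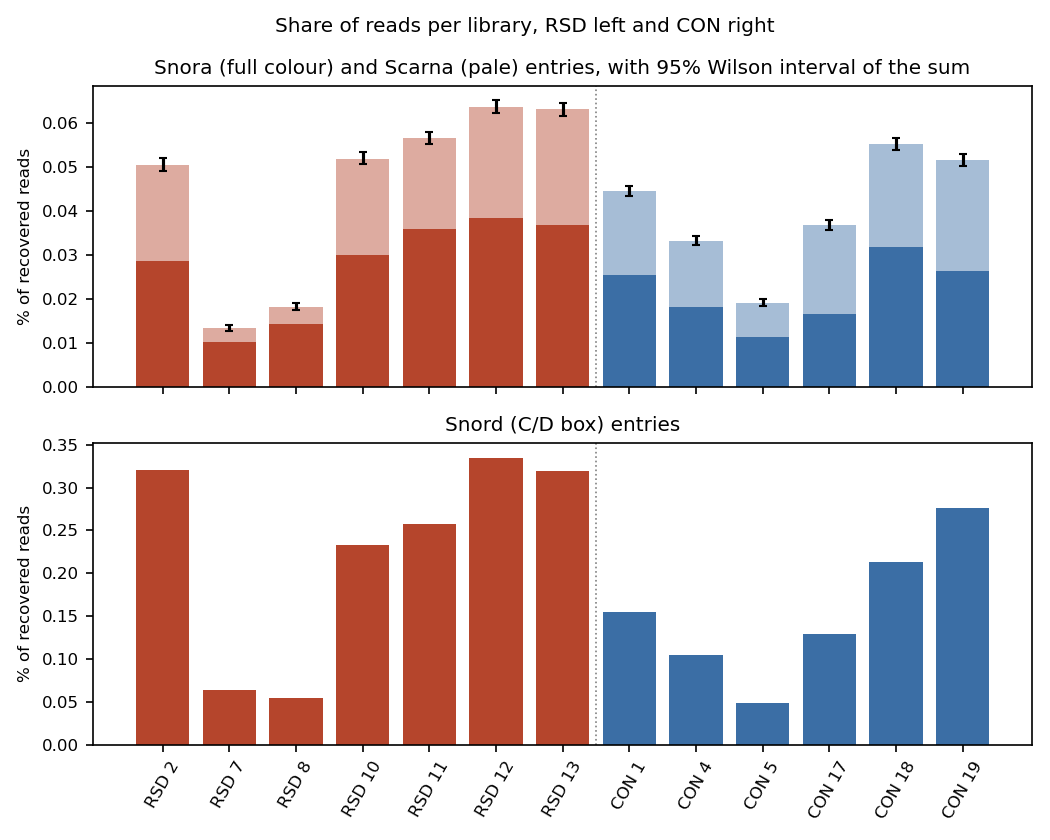
Share of recovered reads in each library (percent), RSD libraries left and CON libraries right; the upper bars stack Snora and Scarna entries with the 95% Wilson interval of their sum, and the lower bars give Snord entries. RSD 7, RSD 8 and CON 5 are the lowest libraries in both panels, at 0.0134%, 0.0183% and 0.0192% for the Snora and Scarna sum.

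Of the 41 entries, 38 passed the filter on low counts, 30 Snora and 8 Scarna, and entered the test. Scarna8 (1 to 18 reads in a library), Snora34 (0 to 15) and Snora36b (6 to 26) did not. None of the 38 was called at an adjusted p under 0.05 (limma on log2(normalized reads + 1), Benjamini-Hochberg over 12496 genes), against a background of 0% of all genes. The smallest adjusted p of a member was 0.821 in this fit. On the recovered reads edgeR called 0 members (background 0%) and DESeq2 called 0 members (background 0.0162%). At an unadjusted p under 0.05 there were 3 of 38 (7.89%), against 4% of all genes, and the count was 3 in edgeR (background 4.81%) and 3 in DESeq2 (background 4.62%). The 3 were the same in all of these tests, Snora28, Snora41 and Snora75, each higher in RSD. In 0 of 38 did all RSD libraries lie on 1 side of all CON libraries (background 0.064%). The log2 difference was above 0 for 28 of 38, against a background of 51.4% of all genes, and this held for 26 of 30 Snora entries and for 2 of 8 Scarna entries, Scarna3a and Scarna3b. The median log2 difference was 0.25 over the 38, against 0.006 over all genes and 0.39 over 47 Snord entries. It ran between -0.65 (Snora43) and 0.89 (Snora3). The entries are not independent of each other, since they share the libraries.

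**Figure D2:**
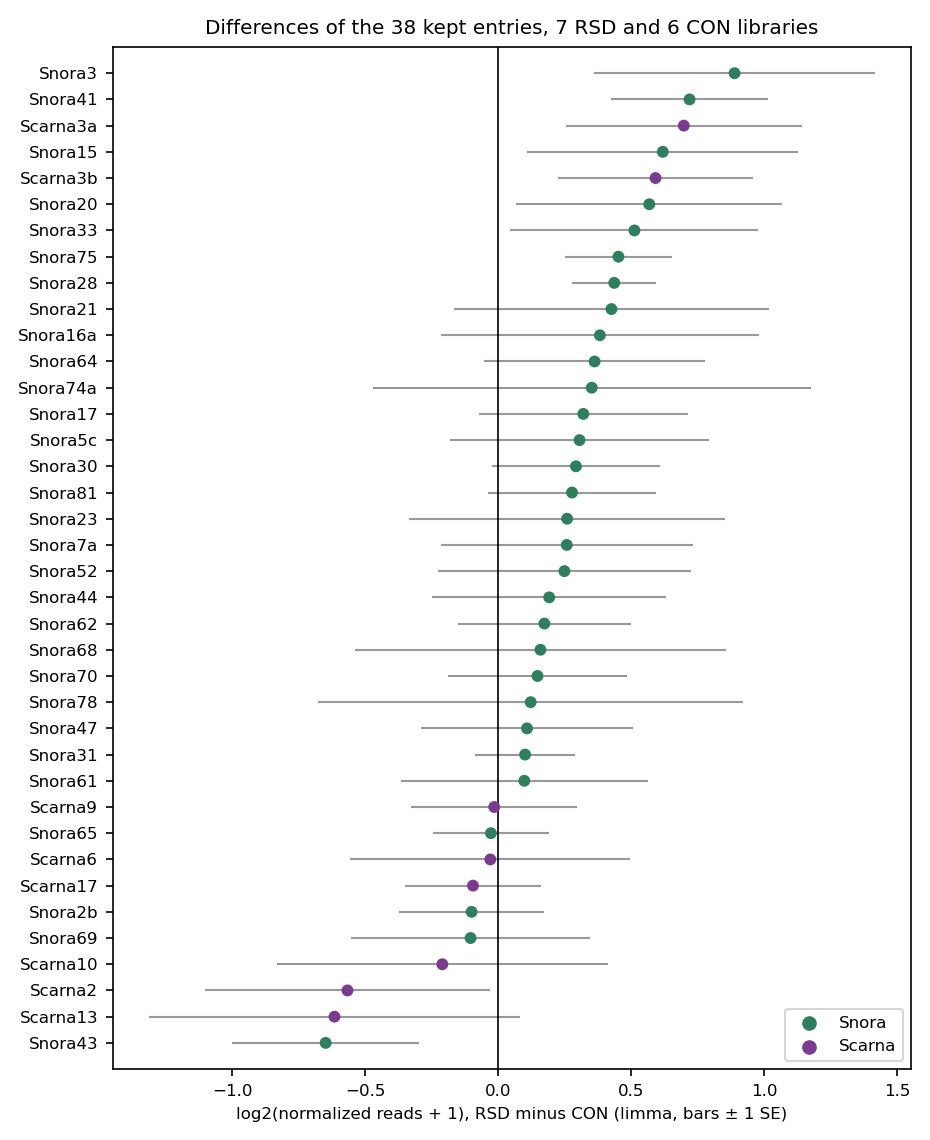
Log2 difference of each kept entry, RSD minus CON, from limma on log2(normalized reads + 1), with bars of 1 SE to either side; green points are Snora and purple points Scarna entries. Of 38 points 28 lie above 0, no difference passed the adjusted threshold, and the bars of most entries reach 0.

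The size and direction of the median depended on which libraries were compared. Without RSD 7, RSD 8 and CON 5, a choice made after the values were seen, 36 of 38 entries were above 0 (background 52.3%), with a median of 0.51, and 19 of 38 had an unadjusted p under 0.05 (background 2.58%). In that fit 0 of 38 passed the adjusted threshold (background 0%). The libraries left out were those with the lowest share of reads in these same entries, and most of them were RSD. Leaving them out therefore favours higher levels in RSD for these entries, and the background is not a like comparison. With the log2 share of Snord reads as a covariate, 14 of 38 were above 0 (background 51.6%) and the median was -0.08. The mean Snord share was itself 0.226% in RSD and 0.154% in CON. A difference common to the Snord entries and these entries is therefore taken out by that fit, at least in part. Within sample numbers 1 to 8 (3 RSD and 3 CON libraries) 12 of 38 were above 0 (background 49%) with a median of -0.30, and within numbers 10 to 19 (4 RSD and 3 CON) 35 of 38 (background 51.2%) with a median of 0.53. RSD 7, RSD 8 and CON 5 all have numbers up to 8. The difference between the number ranges, tested as an interaction in limma after the values were seen, passed an adjusted p of 0.05 for 0 of 38 members (background 0%), with 5 of 38 at an unadjusted p under 0.05 (background 21.7%). The interaction was above 0 for 35 of 38 members (background 52.2%), with a median of 0.82 against 0.026 over all genes. At an unadjusted limma p under 0.05 there were 3 of 38 within numbers 1 to 8 (background 22.2%) and 16 of 38 within numbers 10 to 19 (background 5.44%). Without CON 5 alone 20 of 38 were above 0 (background 51.7%), with a median of 0.04. The median was 0.31 without CON 18 and 0.47 without CON 18 and RSD 8.

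**Figure D3:**
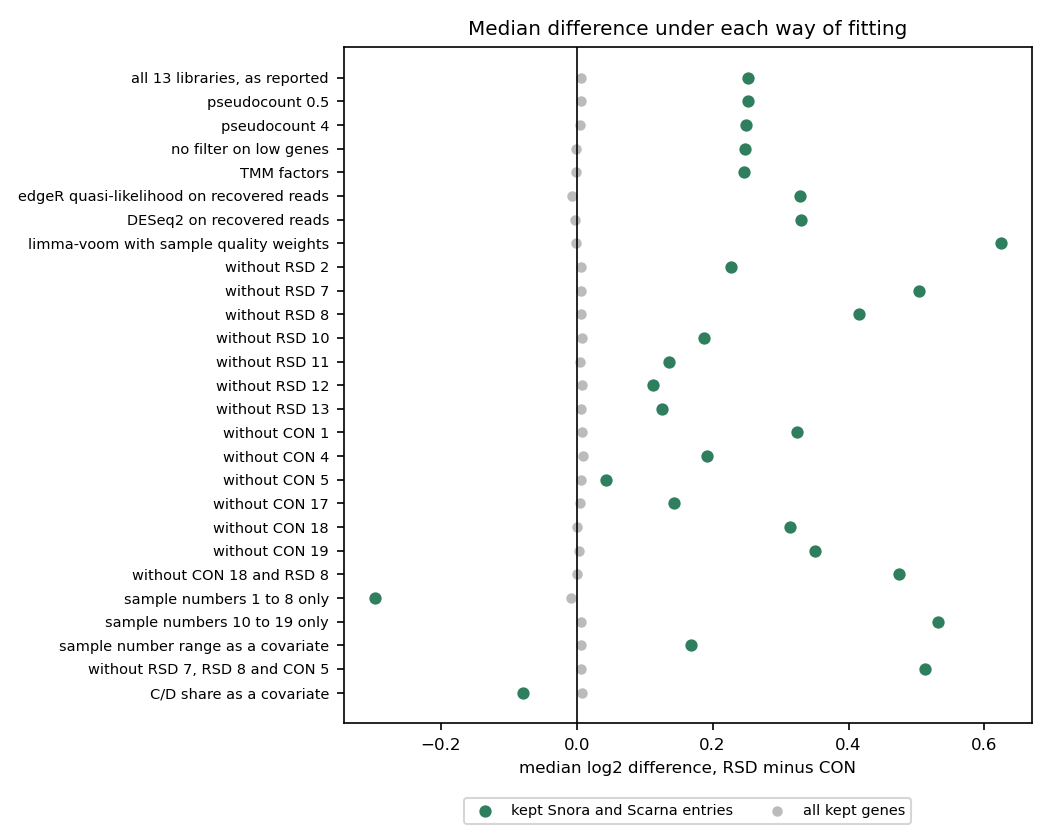
Median log2 difference, RSD minus CON, over the kept Snora and Scarna entries (green) and over all kept genes (grey), with 1 line for each choice of libraries or model. The grey points stay near 0, while the green points run between -0.30 (numbers 1 to 8) and 0.62 (limma-voom with sample quality weights).

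Scarna13, a box H/ACA Cajal body RNA, was the most abundant entry in total and per base of length, at 5.50 normalized reads per base over the 13 libraries. It had 167 normalized reads in RSD 7, 209 in RSD 8, 1595 in RSD 11, 1771 in RSD 10, 1860 in RSD 2, 2132 in RSD 13 and 2186 in RSD 12. The CON libraries had 643 (CON 5), 1221 (CON 4), 1542 (CON 1), 1994 (CON 17), 2031 (CON 18) and 2322 (CON 19). RSD 7 and RSD 8 lay below every CON library, and the other RSD libraries lay within the CON range. The means were 1417 ± 864 in RSD (SD, n = 7) and 1625 ± 620 in CON (SD, n = 6), a log2 difference of -0.62 ± 0.70 (SE). Without RSD 7, RSD 8 and CON 5 that difference was 0.09 ± 0.16. Scarna13 made up 9.73% to 32.5% of the reads of the 41 entries in RSD and 30.5% to 47.5% in CON, and these ranges overlapped. The genes whose log2 level was most like that of Scarna13 over the 13 libraries were Rmrp (Pearson r = 0.97), Rpph1 (r = 0.97) and the replication-dependent histone gene Hist1h3a (r = 0.94). Those values rest on RSD 7, RSD 8 and CON 5, without which r was 0.45 for Rmrp, 0.50 for Rpph1 and 0.55 for Hist1h3a over 10 libraries.

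Per base the next entries were Snora28 (2.27 normalized reads per base), Snora70 (1.89), Snora81 (1.88), Snora23 (1.71), Scarna3a (1.35), Snora78 (1.12) and Snora16a (0.854). In human cells the RNAs of the same name guide pseudouridines in ribosomal RNA, SNORA28 and SNORA70 in the small subunit and SNORA23 and SNORA81 in the large subunit. Snora70 had a lowest, median and highest level of 101, 320 and 416 normalized reads in RSD and 131, 239 and 319 in CON. Its log2 difference was 0.15 ± 0.34 (SE). Snora81 had 129, 403 and 531 in RSD and 169, 280.4 and 454 in CON, a log2 difference of 0.28 ± 0.32. Each group of both entries spanned most of the range of the other.

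Snora23, Snora78 and Snora16a differed far more between libraries than between groups. Snora23 had 57.0 normalized reads in RSD 7 and 128 in RSD 8 against 360 to 571 in the other RSD libraries, and 82.2 in CON 5 against 149 to 544 in the other CON libraries (log2 difference 0.26 ± 0.60, SE). Snora78 had 15.8 in RSD 7 and 17.0 in RSD 8 against 170 to 278 in the other RSD libraries, and 28.8 in CON 5 against 71.4 to 203 in the others (0.12 ± 0.80). Snora16a had 17.9 in RSD 7 and 40.4 in RSD 8 against 140 to 239 in the other RSD libraries, and 34.2 in CON 5 against 52.9 to 143 in the others (0.38 ± 0.60). The direction of all 3 was the opposite within numbers 1 to 8.

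This pattern was general. RSD 7, RSD 8 or CON 5 was the lowest library for 32 of the 38 kept entries, and the highest was an RSD library for 32 of 38. The share over all genes is not given for these counts, and 7 of the 13 libraries are RSD. The highest level was over 5 times the lowest for 27 entries and under 3 times for 6. Over the 13 libraries the SD of the log2 level had a median of 0.86 for the 38 entries, 0.70 for 47 Snord entries, 0.22 for 33 host genes and 0.25 for 10836 other genes of the same range of mean level. That range is wide and holds most of the 12496 tested genes, so these genes are not matched to the entries by level. The median standard error of a log2 difference was 0.45 for the entries, against 0.13 for all genes, so that a difference of a given size was less well resolved here. In RSD 7 all 38 lay below their own median over the libraries, and so did 33 of 38 in RSD 8, in CON 5 and in CON 17, and 31 of 38 in CON 4. In RSD 10, RSD 11, RSD 12 and RSD 13 2 or 3 entries did.

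**Figure D4:**
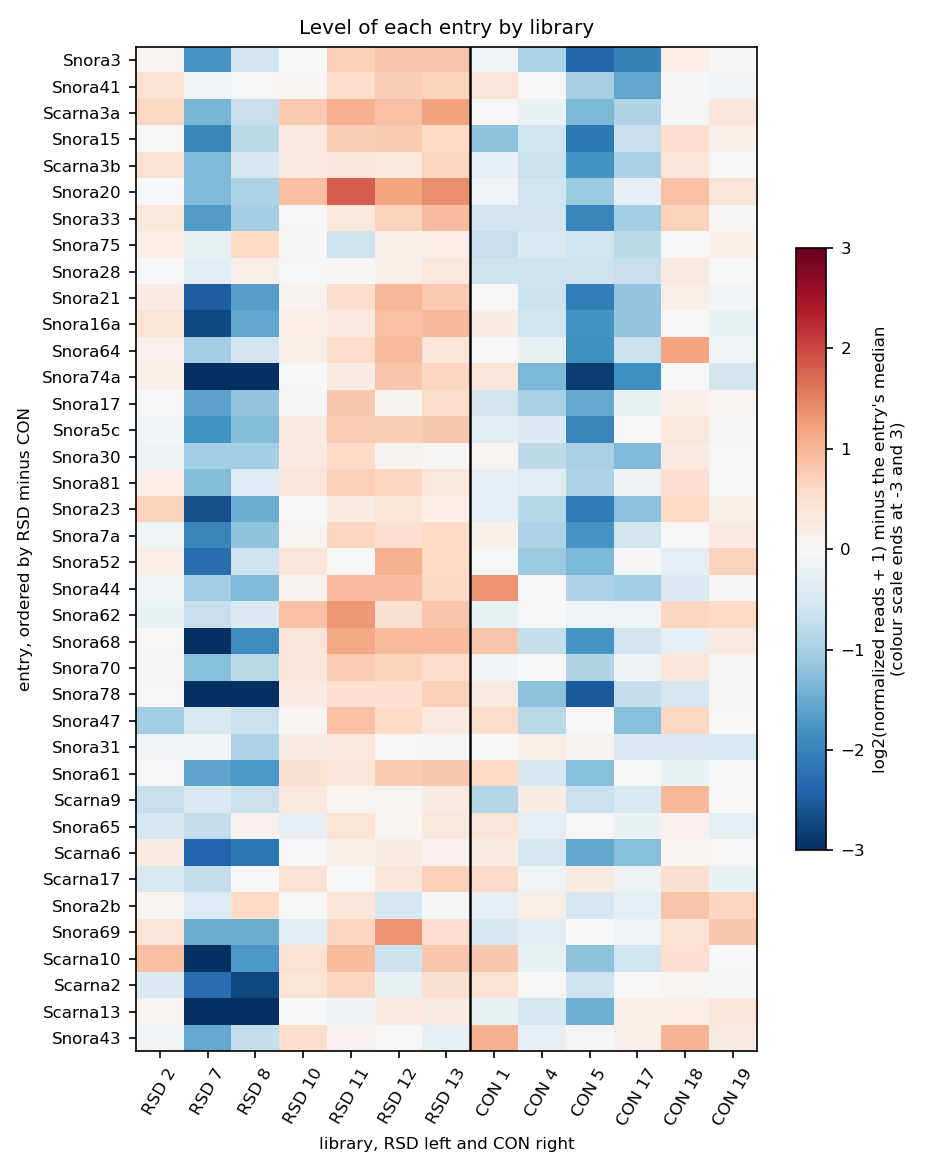
Log2(normalized reads + 1) of each kept entry minus its median over the 13 libraries, RSD libraries left of the line and CON libraries right, entries ordered by the log2 difference; blue is below and red above the median. RSD 7 is blue for 38 of the 38 entries, RSD 8, CON 5 and CON 17 for 33 each and CON 4 for 31, with the deepest blue in RSD 7, RSD 8 and CON 5, while Snora28, Snora31, Snora65 and Snora75 vary little.

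Snora28 and Snora75 were among the few even entries. Snora28 had 247, 316 and 389 normalized reads as lowest, median and highest level in RSD, and 192, 201 and 375 in CON. CON 1, CON 4, CON 5 and CON 17 lay between 192 and 201, below every RSD library, while CON 18 (375) and CON 19 (308) lay within the RSD range. The means were 324 ± 44.1 in RSD and 246 ± 77.2 in CON (SD, n = 7 and 6), with a log2 difference of 0.44 ± 0.16 (SE; limma unadjusted p = 0.0137, adjusted p = 0.821). That difference was 0.58 in numbers 1 to 8, 0.26 in numbers 10 to 19 and 0.44 without RSD 7, RSD 8 and CON 5. In limma-voom with sample quality weights it was 0.58 (limma-voom adjusted p = 0.0892).

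Snora75, whose human counterpart guides a pseudouridine in the small ribosomal subunit, had 55.0, 93.4 and 129 normalized reads in RSD and 48.1, 58.4 and 93.8 in CON. RSD 8, low in most of the other small RNAs, was the highest library, and RSD 11 (55.0) lay within the lower CON libraries. The log2 difference was 0.45 ± 0.20 (SE; limma unadjusted p = 0.0380, adjusted p = 0.821), 0.78 within numbers 1 to 8 and 0.16 within numbers 10 to 19. Snora41, in an intron of the elongation factor gene Eef1b2, had 22.2, 33.7 and 41.6 in RSD and 7.69, 23.4 and 32.4 in CON. CON 17 (7.69) and CON 5 (11.7) were lowest, and the other CON libraries overlapped the RSD range. Its log2 difference was 0.72 ± 0.30 (SE; limma unadjusted p = 0.0272, adjusted p = 0.821).

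Snora3 and the Scarna3 pair had the next smallest p on the higher side, and none passed an unadjusted 0.05. Snora3, in the ribosomal protein gene Rpl27a, had 27.4, 99.9 and 176 normalized reads in RSD and 18.1, 70.0 and 110 in CON (log2 difference 0.89 ± 0.53, SE). Scarna3a had 59.1, 272 and 366 in RSD and 61.9, 146 and 205 in CON, with RSD 7 the lowest of all (0.70 ± 0.44). Scarna3b had 39.0, 126 and 154 in RSD and 27.7, 72.4 and 126 in CON (0.59 ± 0.37). Without RSD 7, RSD 8 and CON 5 Scarna3a had 243 to 366 in RSD and 84.6 to 205 in CON, and the log2 difference was 1.06 ± 0.20 (SE; limma adjusted p = 0.990). RSD 7 (59.1) and RSD 8 (96.8) were its lowest RSD libraries, so that leaving them out removed the overlap of the groups. With the Snord covariate the log2 difference of Scarna3a was 0.35. The reads of Scarna3a and Scarna3b lie over the miR-1843 hairpins too, and a mature microRNA cannot be told from the longer RNA in these values.

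The other Cajal body RNAs had log2 differences below 0. Scarna2, whose human counterpart is a C/D type guide for U2 small nuclear RNA, had 10.6 normalized reads in RSD 8 and 14.8 in RSD 7 against 55.8 to 120 in the other RSD libraries, and 49.1 to 104 in CON (log2 difference -0.57 ± 0.53, SE). Scarna10, a mixed C/D and H/ACA type in human cells, had 1.06 to 32.6 in RSD and 6.40 to 29.7 in CON (-0.21 ± 0.62). Scarna6, of the same mixed type, was lowest in RSD 7 and RSD 8 and reached 131 in RSD 2, against 36.3 to 130 in CON (-0.03 ± 0.53). Scarna9 and Scarna17, C/D type guides, were among the even entries. Scarna9 had 10.5 to 21.8 in RSD and 8.99 to 34.9 in CON (-0.02 ± 0.31), and Scarna17 had 12.7 to 35.6 in RSD and 18.4 to 32.4 in CON (-0.10 ± 0.25). Within numbers 10 to 19 the log2 differences of these 5 were above 0, with 0.33 for Scarna2, 0.54 for Scarna6, 0.01 for Scarna9, 0.43 for Scarna10 and 0.33 for Scarna17. Of the Snora entries, Snora43 had the most negative difference, with 3.17, 10.5 and 16.6 in RSD and 9.28, 13.0 and 24.3 in CON (-0.65 ± 0.35), and Snora2b had 12.9, 18.7 and 28.7 in RSD and 12.8, 18.4 and 34.9 in CON (-0.10 ± 0.27).

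Snora34, which was not tested, had 1.16 to 16.7 normalized reads in RSD and 0 to 7.73 in CON, and 0 of the 10267683 reads in CON 5 were assigned to it. In the fit without the filter its log2 difference was 1.41 ± 0.55 (SE; limma unadjusted p = 0.0196, adjusted p = 0.840), on few reads. The table lists the precursor Mir1291, which overlaps its 5′ end, as a separate row with higher levels, 9.50 to 57.0 in RSD and 11.5 to 65.4 in CON (log2 difference 0.38 ± 0.47, SE). How reads over the shared bases were assigned is not given in the sources used here.

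Host genes were far more even than the RNAs they contain. In 34 of 34 pairs in which both passed the filter, on 31 host genes, the small RNA had the larger SD over the libraries. Levels of small RNA and host were compared by a Pearson correlation over the 13 libraries in each of the 34 pairs, with permutation p-values adjusted over the 34. The median r was 0.09, 20 of 34 were above 0, and 3 passed an adjusted p of 0.05. Snora28 followed Eif5, a translation initiation factor gene (r = 0.84, permutation p = 0.00022, adjusted p = 0.00748; Spearman rho = 0.82, permutation p = 0.00098, adjusted p = 0.0333). Leaving out the pair of libraries farthest from the median of Eif5 gave r = 0.81, while numbers 1 to 8 alone gave 0.96 and numbers 10 to 19 gave 0.62. Eif5 had a mean of 6570 ± 997 normalized reads in RSD and 5842 ± 1617 in CON (SD, n = 7 and 6; log2 difference 0.20 ± 0.15, SE).

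Snora75 followed Ncl, the gene of the nucleolar protein nucleolin (r = 0.77, permutation p = 0.00188, adjusted p = 0.0272; rho = 0.68, permutation p = 0.0130, adjusted p = 0.147), and r was 0.58 without the pair of libraries farthest from the median of Ncl. Within numbers 1 to 8 r was 0.96 and within numbers 10 to 19 it was 0.50. Ncl had 4258 ± 764 in RSD and 3762 ± 647 in CON (0.18 ± 0.12). Snora31 ran opposite to Tpt1 (r = -0.80, permutation p = 0.00240, adjusted p = 0.0272; rho = -0.72, permutation p = 0.00665, adjusted p = 0.113), and without CON 18 and RSD 8, the libraries farthest from the median of Tpt1, r was -0.44, so that this relation rests on them. Numbers 1 to 8 alone gave -0.93, and numbers 10 to 19 gave -0.63. Without CON 18 and RSD 8, and likewise without RSD 7, RSD 8 and CON 5, 0 of 34 pairs passed the adjusted threshold. Snora28 stood at 2.48 times the per-base level of the exons of Eif5, and Snora75 lay closer to that of Ncl. Both overlap an annotated exon, so that reads of host RNA may be counted in them; their part in the relation was not tested.

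Ribosomal protein hosts and most of the small RNAs inside them had differences of opposite sign. All 11 such hosts had a log2 difference below 0, with a median of -0.21 and a range between -0.39 (Rplp2) and -0.03 (Rpl39), none of them called. Of the 11 small RNAs inside them 9 were above 0, with a median of 0.25. These 11 are among the 30 kept Snora entries, of which 26 were above 0, so that most Snora entries outside these hosts were above 0 too. The median over all 38 kept entries, which include the 11, was likewise 0.25. Of all genes 51.4% were above 0. The sign of these small RNAs was therefore not particular to ribosomal protein hosts. Rpl27a had 1221 ± 107 normalized reads in RSD and 1425 ± 219 in CON (SD, n = 7 and 6; -0.21 ± 0.09, SE), while Snora3 within it had 114 ± 57.6 in RSD and 65.0 ± 40.2 in CON. CON 18 was the highest library for Rpl27a, at 1846. Without CON 18, 10 of the 11 hosts were below 0 and their median was -0.11, while without CON 5 6 of the 11 small RNAs were above 0 with a median of 0.05. Within numbers 1 to 8, 3 of the 11 small RNAs were above 0 (median -0.34), and with the Snord covariate likewise 3 (median -0.06). The difference between host and small RNA was not tested.

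**Figure D5:**
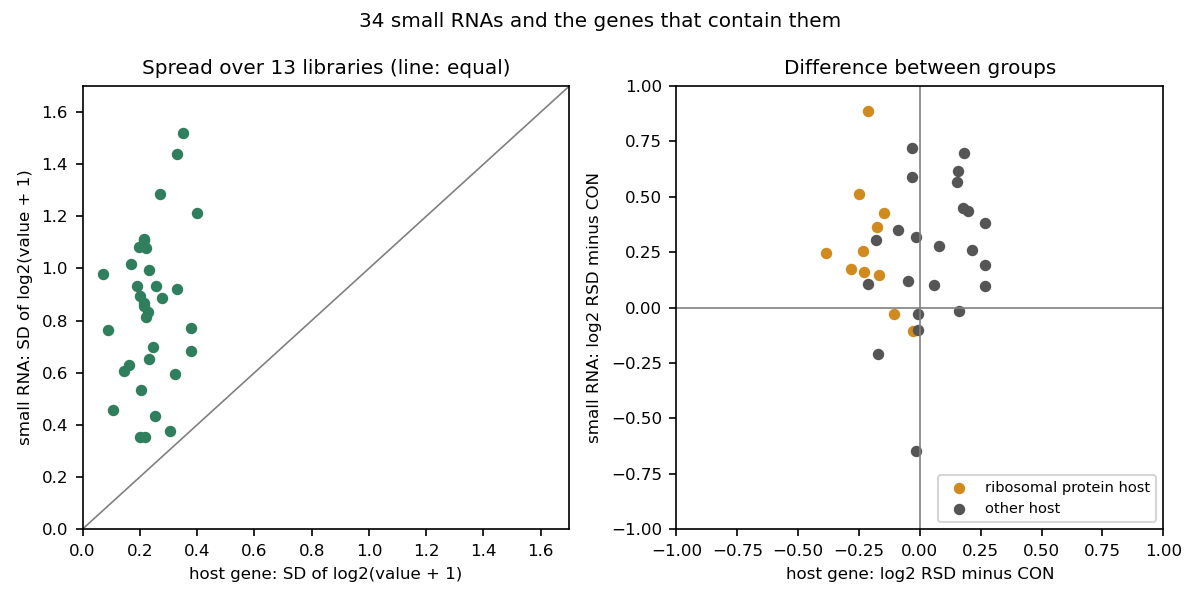
Small RNAs (vertical axis) against the genes that contain them (horizontal axis) for the 34 pairs, as the SD of log2(normalized reads + 1) over 13 libraries on the left and as the log2 difference, RSD minus CON, on the right. Every point on the left lies above the line of equal spread, and on the right the 11 ribosomal protein hosts (orange) all lie left of 0.

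Genes of the H/ACA particle itself were more even than the small RNAs, though not more even than other genes. The SD of the log2 level had a median of 0.28 for the core protein genes. It was 0.86 for the 38 kept small RNAs and 0.24 for all kept genes. Of the 4 core proteins 0 were called. Dkc1 had 211, 222 and 362 normalized reads as lowest, median and highest level in RSD and 181, 215 and 302 in CON, with the highest in RSD 8 (log2 difference 0.17 ± 0.15, SE). Nop10 had a log2 difference of 0.02 ± 0.23, Nhp2 of -0.09 ± 0.16 and Gar1 of 0.07 ± 0.13. Of 4 assembly factors, 8 of 10 Cajal body protein genes in the table, 10 of 12 genes of small RNA end processing, 12 protein-only pseudouridine synthases and 4 of 5 C/D core protein genes, 0 were called in either direction. Nolc1, which encodes a chaperone of these particles that shuttles between nucleolus and Cajal body, had the smallest p of them, with 419, 487 and 576 in RSD and 356, 403 and 461 in CON (0.25 ± 0.09; limma unadjusted p = 0.00986, adjusted p = 0.821). Nop56, a C/D core protein gene, had 682, 761 and 943 in RSD and 621, 679 and 705 in CON (0.19 ± 0.08; limma unadjusted p = 0.0249, adjusted p = 0.821). In the other lists the smallest p belonged to Shq1 (0.13 ± 0.13), Skiv2l2 (0.18 ± 0.11) and Pus3 (0.22 ± 0.15). The telomerase RNA Terc, which ends in an H/ACA domain, had 2.13, 18.7 and 38.9 in RSD and 10.1, 14.4 and 41.3 in CON (-0.06 ± 0.54), and was lowest in RSD 8.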

How the data were processed

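RNA of sorted microglia was sequenced in 7 RSD and 6 CON libraries. Per the labels' protocols, cells were enriched on Percoll before the sort, the PicoPure kit served for extraction, and the library kit was Ovation SoLo with AnyDeplete, which removes ribosomal RNA and other abundant species. Per the submitters' processing notes, STAR, DESeq2 and the mm10 build were used. The read counter, annotation, use of strand, treatment of reads with several matches and size selection, any of which can affect RNAs this short, were not given in the sources used here. For each gene the authors deposited a signal, a read count over a size factor of the library. In each library 100% of these were whole multiples of 1 step (tolerance 0.01 reads), which gave the reads back.

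The test was limma 3.58.1 (R 4.3.3) with trend and robust options on log2(value + 1), a scale that understates differences of low genes. It was two-sided, RSD minus CON, and p-values were adjusted by Benjamini-Hochberg (threshold 0.05) over 12496 genes that passed filterByExpr of edgeR (minimum count 10, minimum total 15). edgeR 4.0.16 and DESeq2 1.42.0 on recovered reads, other pseudocounts, filters and factors, and subsets of libraries were the alternatives. Correlations used 100000 permutations. The limma step was checked on simulated counts. Positions and sequences came from GENCODE M21 and RefSeq tables.

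The members, lists and rules were chosen with earlier results of these data known. Named entries were the 8 of highest mean per base, the 6 of smallest p in each direction and any tested Scarna, with their host genes, the 3 genes most correlated with the most abundant entry, all H/ACA core protein genes and up to 2 genes of smallest p in each other list. Depth per library was 9.76 to 12.3 M reads, and intervals cover counting error only. 1 gene of the microglia marker list was not used here.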

Additional observations from a re-analysis of the deposited data

Results flagged for a closer look

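In 8 of 96 sets of 1 group's values, 1 library stood apart from the rest by Dixon's criterion, which chance meets in about 1 of 20 sets. None of the 8 was a Snora or Scarna entry, and each library was RSD 8 or CON 18. The criterion seeks 1 library apart, so 2 libraries that are low together can hide each other. For Scarna13, RSD 7 and RSD 8 had 167 and 209 normalized reads against 1595 to 2186 in the other RSD libraries, and neither was flagged. RSD 8 was high for Rfwd2 (the table's symbol for Cop1), host of Scarna3a, at 1927 normalized reads against 1181 to 1462 in the other RSD libraries. It was high for 5830418K08Rik (Cep295), host of Scarna9, at 1686 against 1037 to 1256, and for Eif4a2, host of Snora81, at 7889 against 5721 to 6540. It was low for Gar1, of the H/ACA particle, at 57.5 against 77.0 to 88.8. CON 18 was high for 5830418K08Rik at 1243 normalized reads against 1017 to 1076 in the other CON libraries, and for Tpt1, host of Snora31, at 4831 against 3441 to 3851. It was high for Eef1b2, host of Snora41, at 849 against 585 to 667, and for Rpl27a, host of Snora3, at 1846 against 1236 to 1425.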

How the results depend on the processing

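No member was called under any alternative, and limma and edgeR called 0 of all genes in each, while DESeq2 called 2 genes, neither a member and 1 of them a Snord. In limma-voom with sample quality weights the smallest adjusted p of a member was 0.0892, for Snora28. In that fit 5 of 38 members had an unadjusted p under 0.05 (background 9.02%), and 36 of 38 were above 0 (background 49.8%). The counts of 0 with few libraries do not show stability. The median log2 difference lay between 0.04 (without CON 5) and 0.50 (without RSD 7) when 1 library was left out, and the difference in share of reads between 0.00111 and 0.0106 percentage points; 0 members and 0 genes were called in each of the 13 such fits. The share difference was -0.00490 percentage points within numbers 1 to 8 and 0.0110 within numbers 10 to 19. Directions turned, with the cause not tested, as follows. In edgeR Scarna10 was at 0.15 and Scarna6 at 0.13, and in DESeq2 at 0.16 and 0.14. In limma-voom with sample quality weights Scarna13 was at 0.0628, Scarna17 at 0.0215, Snora2b at 0.0449, Scarna10 at 0.25, Scarna6 at 0.43 and Scarna9 at 0.39. Without CON 18 and RSD 8 Scarna10 was at 0.15, Scarna6 at 0.36 and Scarna9 at 0.29. Within numbers 1 to 8 Snora70 was at -0.39, Snora23 at -0.0624, Snora78 at -1.03, Snora16a at -0.56 and Snora2b at 0.29, and within numbers 10 to 19 Scarna2 at 0.33, Scarna17 at 0.33, Scarna10 at 0.43, Scarna6 at 0.54 and Scarna9 at 0.00963. With the number range as a covariate Snora78 was at -0.00640. Without RSD 7, RSD 8 and CON 5 Scarna13 was at 0.0935, Scarna2 at 0.0796, Scarna17 at 0.0878, Scarna10 at 0.40, Scarna6 at 0.46 and Scarna9 at 0.0383, and with the Snord covariate Snora70 at -0.11, Snora23 at -0.20, Snora78 at -0.51 and Snora16a at -0.0748. Over fits that left out 1 library, the ranges that crossed 0 were -0.43 to 0.25 for Scarna10, -0.24 to 0.28 for Scarna6, -0.17 to 0.20 for Scarna9, -0.21 to 0.0305 for Scarna17, -0.22 to 0.0512 for Snora2b, -0.23 to 0.57 for Snora78, -0.0382 to 0.64 for Snora23 and -0.00972 to 0.36 for Snora70. Pairs correlated with the host fell to 0 of 34 without CON 18 and RSD 8 and without RSD 7, RSD 8 and CON 5 (fewer samples), where r was 0.82 and 0.81 for Snora28, 0.65 and 0.64 for Snora75 and -0.44 and -0.60 for Snora31, and stayed at 3 with the other pseudocounts. No paired analysis was possible because the groups share no sample number. Entries of a few reads, such as Snora34 and Scarna8, cannot be resolved at this depth.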
